A study of Mus musculus with 2 samples.

Results

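TRBV14, TRBV15, TRBV16 and TRBV17 are neighbouring V genes of the TCR β-chain locus. Their use was described in the clonotype lists of 2 sorted hepatic T cell populations of TG mice, CD8αα and CD8αβ. Clonotypes with a TCR β-chain J segment as first J hit and 1 of these 4 genes as first V hit were taken. This gave 91 clonotypes with 1234 reads of 337 clonotypes with 2995 reads in the CD8αα library, and 238 clonotypes with 491 reads of 915 clonotypes with 1850 reads in the CD8αβ library. Of the 24 TRBV genes found in the lists, these are 4. In CD8αα T cells TRBV14 had 12 clonotypes, TRBV15 had 18, TRBV16 had 41 and TRBV17 had 20, and in CD8αβ T cells they had 58, 50, 94 and 36. No clonotype of the 4 genes had a V hit tied with another gene, and none lacked a TCR β-chain J segment.

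Both libraries came from dnTGFβRII mice on the C57BL/6 background, in which the Cd4 promoter drives a dominant negative TGF-β receptor II, so that T cells of both libraries carry the transgene. The labels give an age of 10 weeks and no number of mice, and the methods of the study give a younger age for the TG mice used for hepatic cells. There was 1 library for each cell type and no library from other mice, so each test below compares 2 lists of reads or clonotypes rather than conditions, and replicate error could not be measured. The lists hold receptor chains only, so the CD8α and CD8β labels could not be checked against transcripts. Over all chains, TCR γ-chain clonotypes held 7.04% of CD8αα and 0.560% of CD8αβ reads, immunoglobulin clonotypes held 21.8% and 13.7%, and the part of either in the results was not tested. The 3-read floor was 0.100% of TCR β-chain reads in CD8αα and 0.162% in CD8αβ T cells. Molecular identifiers are not described, so the 95% Wilson intervals and the floors cover counting error only.

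A TCR β-chain is made when a D segment is joined to a J segment and a V gene is then joined to the DJ unit. Bases are trimmed from the ends and others are inserted at the joints, and the loop that spans them, the CDR3, makes much of the contact with peptide. The V gene itself encodes the CDR1 and CDR2 loops and the first residues of the CDR3. TRBD1 lies ahead of both J clusters and can join either, whereas TRBD2 lies between them and by deletion joins only TRBJ2 segments.

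In the GENCODE annotation of GRCm38, all 4 genes lie on the plus strand of chromosome 6 and have 2 exons, the second of which encodes the V domain. Trbv14 lies at chr6:41135145-41135616, Trbv15 at chr6:41141188-41141658, Trbv16 at chr6:41151740-41152230 and Trbv17 at chr6:41163062-41163556. They span 28412 bases, and 369645 bases separate Trbv17 from Trbd1. Identity between their second exons ran from 48.3% for TRBV16 and TRBV17 to 72.9% for TRBV15 and TRBV16. The 3′ ends of the V segments and the TRBD2 segment are shown because the CDR3s below start or continue with them, from the GRCm38 plus strand. Capitals mark the part of each V segment inside the CDR3, and in TRBD2 the codons for Asp-Trp-Gly (DWG).
TRBV14: cagccacctatctcTGTGCCAGCAGTTTCT
TRBV15: agctgtgtatctgTGTGCCAGCAGTTTAGC
TRBV16: agcggtgtatcttTGTGCAAGCAGCTTAGA
TRBV17: tgccatgtacctcTGTGCTAGCAGTAGAGA
TRBD2: ggGACTGGGGGggc

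The CDR3 of the largest clonotype of each gene is shown for each library because the clone sizes and read-weighted values turn on them. Bases that the assembly assigned to the V or J segment are in lower case, and capitals mark bases assigned to a D segment or to no segment. Where clonotypes tied for the most reads, the one listed first in the file is given.
TRBV14-TRBJ2-7, CD8αα, 39 reads: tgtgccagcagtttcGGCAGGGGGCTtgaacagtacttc
TRBV15-TRBJ2-7, CD8αα, 18 reads: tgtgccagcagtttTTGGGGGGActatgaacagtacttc
TRBV16-TRBJ2-1, CD8αα, 663 reads: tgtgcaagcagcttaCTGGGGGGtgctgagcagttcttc
TRBV17-TRBJ2-7, CD8αα, 26 reads: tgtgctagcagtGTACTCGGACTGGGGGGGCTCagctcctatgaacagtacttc
TRBV14-TRBJ1-6, CD8αβ, 15 reads: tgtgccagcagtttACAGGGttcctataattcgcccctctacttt
TRBV15-TRBJ1-3, CD8αβ, 7 reads: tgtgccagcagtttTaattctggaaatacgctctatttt
TRBV16-TRBJ2-4, CD8αβ, 20 reads: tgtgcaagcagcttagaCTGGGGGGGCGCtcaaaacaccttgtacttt
TRBV17-TRBJ2-7, CD8αβ, 3 reads: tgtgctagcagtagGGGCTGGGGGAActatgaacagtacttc

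With each clonotype counted once, the 4 genes took 27.0% (95% interval 22.5 to 32.0) of CD8αα and 26.0% (23.3 to 28.9) of CD8αβ TCR β-chain clonotypes. TRBV16 was the V gene with the most clonotypes in both libraries, at 12.2% (9.10 to 16.1) and 10.3% (8.47 to 12.4). TRBV14 was at 3.56% (2.05 to 6.12) in CD8αα and 6.34% (4.94 to 8.11) in CD8αβ T cells, TRBV15 at 5.34% (3.40 to 8.28) and 5.46% (4.17 to 7.13), and TRBV17 at 5.93% (3.87 to 8.99) and 3.93% (2.86 to 5.40). By a two-sided Fisher's exact test adjusted over 24 V genes, 0 of the 4 differed, against 4.17% of all V genes called. The smallest p was that of TRBV14 (Fisher's exact test, p = 0.0704, adjusted p = 0.422). By clonotypes, the intervals of TRBV14, TRBV15 and TRBV17 overlapped within each library.

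By reads, the 4 genes differed from each other in how the libraries compared. TRBV14 held 132 CD8αα reads (4.41%, 3.73 to 5.20) and 121 CD8αβ reads (6.54%, 5.50 to 7.76), and TRBV15 held 87 (2.90%, 2.36 to 3.57) and 114 (6.16%, 5.15 to 7.35), so both took a lower share in CD8αα T cells (Fisher's exact test on reads, adjusted p = 0.00372 and 2.69e-07). TRBV16 held 900 and 201 reads, 19.2 percentage points more in CD8αα T cells (Fisher's exact test, adjusted p = 6.57e-57). TRBV17 held 115 reads (3.84%, 3.21 to 4.59) and 55 reads (2.97%, 2.29 to 3.85), which was not called (Fisher's exact test, adjusted p = 0.160). Reads of 1 clonotype are not independent, and 58.3% of the V genes tested were called by reads, so 3 of 4 is near the background. Without the largest clonotype of each V gene the difference was 5.80 percentage points for TRBV16, -0.013 for TRBV14 and -1.86 for TRBV15, and TRBV17 was then higher in CD8αα T cells by 3.22 (Fisher's exact test, adjusted p = 7.52e-05, 1, 0.0976 and 0.000399). When just 1 clonotype was removed from each library, the largest, which for CD8αα T cells is that of TRBV16 with 663 reads, TRBV16 stood at 10.2% in CD8αα and 11.4% in CD8αβ T cells, or -1.26 percentage points apart (Fisher's exact test, adjusted p = 0.269), so with the other V genes left whole the direction for TRBV16 rests on that clonotype. TRBV14 was then no longer called and TRBV17 was (-1.22 and 1.80 percentage points, Fisher's exact test, adjusted p = 0.198 and 0.0115).

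**Figure D1:**
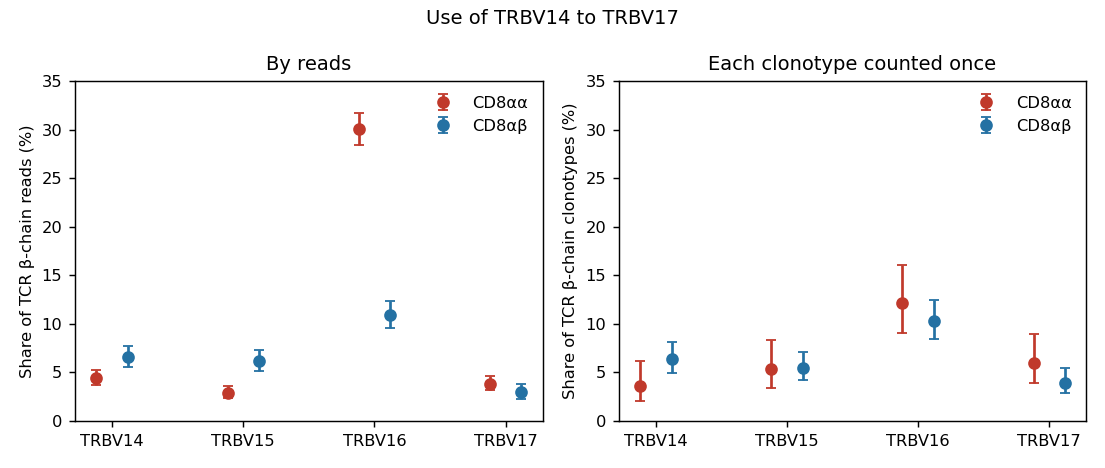
Share of TCR β-chain reads (left) and of TCR β-chain clonotypes (right), in percent, taken by each of the 4 V genes in CD8αα (red) and CD8αβ (blue) T cells; points are single libraries and bars are 95% Wilson intervals for counting error. By reads TRBV16 stands at 30.1% against 10.9%, and with each clonotype counted once the intervals of the 2 libraries overlap for each gene.

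Clone sizes were larger in the CD8αα library for each of the 4 genes. The V genes other than these 4 lay the same way, with a mean of 7.16 reads per clonotype in CD8αα and 2.01 in CD8αβ T cells. For TRBV14, 39 and 37 reads of the largest clonotypes made up most of the 132 reads. For TRBV15 the largest held 18 and 17 of 87 reads. TRBV16 had 1 clonotype with 663 of 900 reads, or 73.7% (70.7 to 76.4), and the next had 38 and 26. In TRBV17 no single clonotype led to that degree, the largest holding 26 of 115 reads and the next 15 and 12. In CD8αβ T cells the top clonotype held 15 reads for TRBV14, 7 for TRBV15, 20 for TRBV16 and 3 for TRBV17.

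Counted from the largest down, 2 clonotypes of TRBV14, 4 of TRBV15, 1 of TRBV16 and 4 of TRBV17 held 50% of the gene's reads in CD8αα T cells, against 13, 13, 16 and 12 in CD8αβ T cells. Simpson's reciprocal index, the number of equally large clonotypes that would give the same index, was 5.07, 8.87, 1.83 and 9.06 in CD8αα and 27.3, 35.5, 33.4 and 29.4 in CD8αβ T cells. Thus TRBV16 had the lowest index of the 4 genes in CD8αα T cells and lay between TRBV17 and TRBV15 in CD8αβ T cells. The index also rises with the number of clonotypes of a gene, so it does not rank the genes by evenness. Both measures were also lower in CD8αα T cells over the V genes other than these 4. There 12 against 140 clonotypes held 50% of reads, and the index was 26.0 against 115. Clonotypes with 10 or more reads numbered 4, 2, 8 and 6 in CD8αα T cells, in the same order of genes, and 1, 0, 4 and 0 in CD8αβ T cells. In TRBV17 of CD8αα T cells these 6 held 84 of 115 reads, whereas no TRBV17 clonotype of CD8αβ T cells had more than 3. Over all TRBV genes, 54 of 337 CD8αα and 12 of 915 CD8αβ clonotypes had 10 or more reads. This cut was not scaled to the 2995 and 1850 TCR β-chain reads of the libraries.

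**Figure D2:**
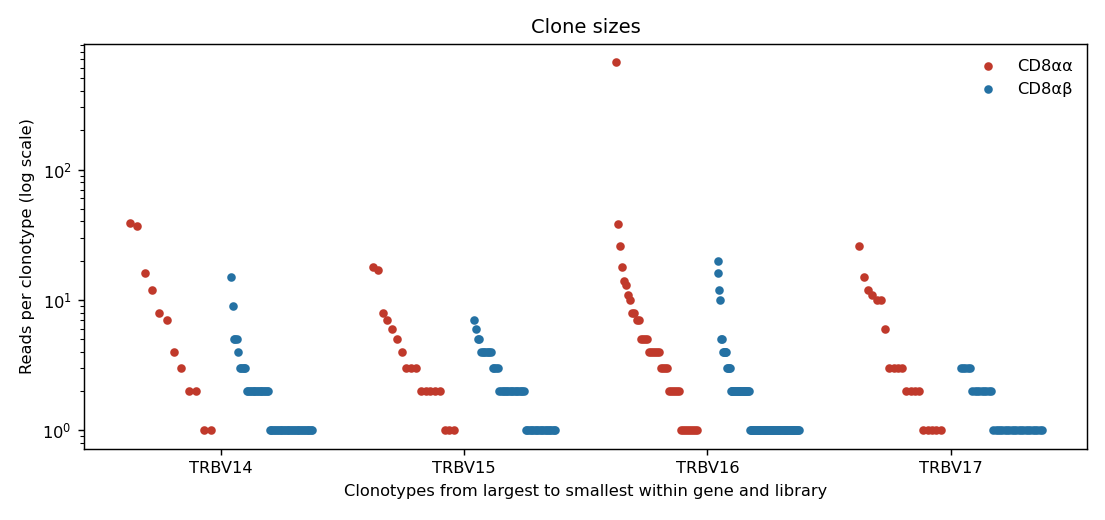
Reads of each clonotype (log axis) of the 4 V genes, ordered from largest to smallest within gene and library, in CD8αα (red) and CD8αβ (blue) T cells. The TRBV16 clonotype with 663 reads stands above the other 40 of its gene in CD8αα T cells, of which the largest had 38, and TRBV17 stays at 3 reads or fewer in CD8αβ T cells.

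Clonotypes with 1 read were rarer in CD8αα T cells: 16.7% of TRBV14 clonotypes against 53.4% in CD8αβ T cells, 16.7% against 38.0% for TRBV15, 21.95% against 60.6% for TRBV16 and 25% against 61.1% for TRBV17. TRBV16 passed the test (9 of 41 against 57 of 94, Fisher's exact test on clonotypes, adjusted p = 0.000729), and the other 3 did not (Fisher's exact test, adjusted p = 0.0798, 0.300 and 0.0668). Of all V genes tested, 14.3% were called. The CD8αα library had more reads for fewer clonotypes, and over all TRBV genes the shares were 31.8% and 57.4%. The 1-read shares were not recomputed at equal depth, so the part of depth in them was not tested. With 1 library each, cell type cannot be told apart from the amount of cells or RNA used. Drawn down to the 1850 reads of the CD8αβ library, the CD8αα library would be expected to show 10.9 clonotypes of TRBV14, 15.9 of TRBV15, 36.3 of TRBV16 and 17.3 of TRBV17, against the 58, 50, 94 and 36 seen in CD8αβ T cells. Over all TRBV genes, 284 would be expected against 915 seen.

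The J partners of the 4 genes were mostly TRBJ2 segments, with each clonotype counted once. TRBJ2 segments were joined to 75.0% of TRBV14, 72.2% of TRBV15, 82.9% of TRBV16 and 75.0% of TRBV17 clonotypes in CD8αα T cells, and to 77.6%, 68.0%, 76.6% and 75.0% in CD8αβ T cells. No gene of the 4 differed between the libraries (Fisher's exact test, adjusted p = 1 for each), and percent called over V genes was 0, with 0 of 21 at an unadjusted p under 0.05. For TRBV16 the difference was 6.33 percentage points, with 34 of 41 against 72 of 94 (Fisher's exact test, p = 0.498). Against the other V genes of its own library, TRBV16 had 82.9% against 65.2% in CD8αα T cells (Fisher's exact test, p = 0.0317, adjusted p = 0.333) and 76.6% against 67.5% in CD8αβ T cells (Fisher's exact test, p = 0.0791, adjusted p = 0.474). No V gene was called in either library in that comparison, and 2 in each had an unadjusted p under 0.05.

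TRBJ2-7 was the J segment with the most clonotypes for all 4 genes in CD8αβ T cells, with 16 of TRBV14, 14 of TRBV15, 24 of TRBV16 and 11 of TRBV17. In CD8αα T cells it led for TRBV16 with 11 and TRBV17 with 7, TRBJ2-1 led for TRBV15 with 5, and for TRBV14 TRBJ1-1, TRBJ2-1, TRBJ2-2 and TRBJ2-7 had 2 clonotypes each. In TRBV16, TRBJ2-5 was joined to 9 of 41 clonotypes in CD8αα and 10 of 94 in CD8αβ T cells. Of 220 V-J pairs, 0 differed by clonotypes (Fisher's exact test, adjusted over pairs, percent called 0), and the 5 with an unadjusted p under 0.05 included none of the 47 pairs of these genes.

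**Figure D3:**
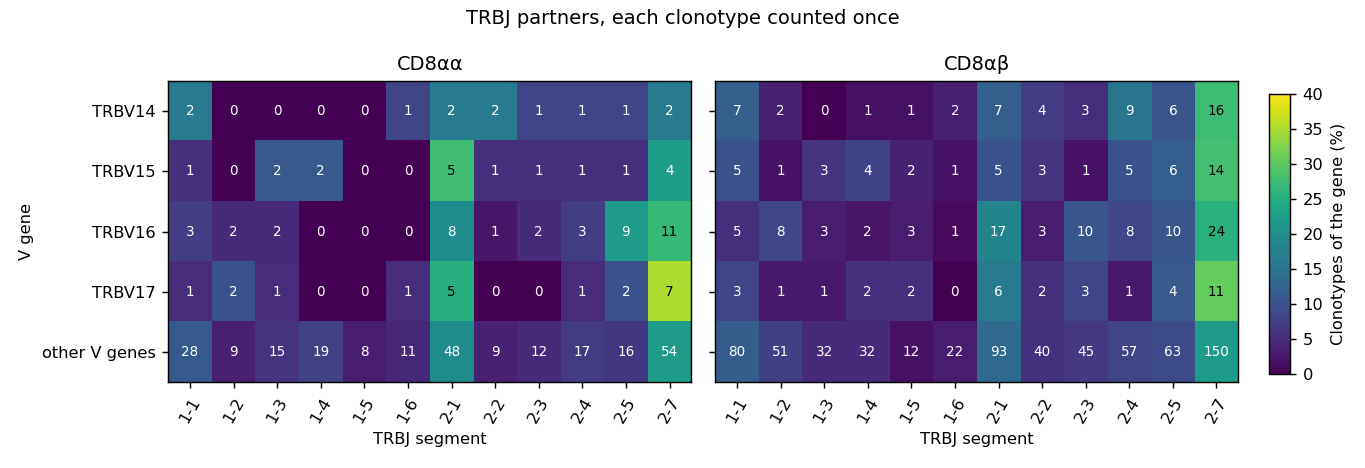
Clonotypes of each V gene joined to each TRBJ segment in CD8αα (left) and CD8αβ (right) T cells; numbers in the cells are clonotypes and colour is their share of the gene's clonotypes in percent, from 0 to 40. TRBJ2-7 is the fullest column for all 4 genes in CD8αβ T cells, with 24 TRBV16 clonotypes, and for TRBV16 and TRBV17 in CD8αα T cells, with 11 and 7.

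By reads, TRBJ2 segments held 91.7% of TRBV14, 85.1% of TRBV15, 96.2% of TRBV16 and 85.2% of TRBV17 reads in CD8αα T cells, and 67.8%, 65.8%, 81.1% and 72.7% in CD8αβ T cells. The V genes other than these 4 lay the other way, at 62.1% and 68.3%. Without the largest clonotype of each gene, TRBJ2 segments held 88.2%, 81.2%, 85.7% and 80.9% of the reads of the 4 genes in CD8αα and 77.4%, 70.1%, 79.0% and 71.2% in CD8αβ T cells, and the intervals of the libraries overlapped for each. For the V genes other than these 4, the 1 largest clonotype of the pool was removed. They then stood at 56.3% (53.8 to 58.8) in CD8αα and 66.0% (63.4 to 68.6) in CD8αβ T cells, still the other way. Of the 47 pairs, 13 were called by reads (Fisher's exact test, adjusted over 220 pairs), against 33.6% of all pairs. TRBV16-TRBJ2-1 (708 against 36 reads), TRBV16-TRBJ2-5 (52 against 16) and TRBV17-TRBJ2-1 (38 against 9) took a higher share in CD8αα T cells, and 10 pairs took a higher share in CD8αβ T cells. Among the latter were TRBV14-TRBJ1-6 with 1 read in CD8αα and 17 in CD8αβ T cells, 15 of them from the TRBV14 clonotype shown above, TRBV15-TRBJ2-4 with 1 and 13, TRBV16-TRBJ2-3 with 9 and 27, and TRBV16-TRBJ2-4 with 21 and 46. Of the 46 TRBV16-TRBJ2-4 reads, 20 and 16 came from 2 clonotypes. Likewise, 663 of the 708 TRBV16-TRBJ2-1 reads in CD8αα T cells came from 1 clonotype.

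CDR3 length, in amino acids with both conserved end residues, was compared by its mean and by the share of long CDR3s. Counting each clonotype once, mean length in CD8αα T cells was 13.3 ± 1.37 aa for TRBV14 (SD over clonotypes, n = 12), 14.3 ± 1.60 for TRBV15 (n = 18), 14.6 ± 1.73 for TRBV16 (n = 41) and 13.95 ± 1.99 for TRBV17 (n = 20). In CD8αβ T cells it was 13.7 ± 1.34 (n = 58), 13.2 ± 1.31 (n = 50), 14.2 ± 1.49 (n = 94) and 13.6 ± 1.55 (n = 36). TRBV16 thus had the longest mean of the 4 in both libraries, and TRBV15 went from the second longest in CD8αα to the shortest in CD8αβ T cells. The SD describes the spread of single CDR3s, and differences between the means were not tested.

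CDR3s of 15 aa or more made up 14% of TRBV15 clonotypes in CD8αβ T cells, against 33.5% of the clonotypes of the other V genes there (7 of 50 against 290 of 865, Fisher's exact test, adjusted p = 0.0365, with 8.33% of V genes called). This call was lost with only clonotypes of at least 2 reads (16.1% against 33.1%, Fisher's exact test, adjusted p = 0.504) and without clonotypes with a tied V hit (14% against 33.3%, adjusted p = 0.0547). In CD8αα T cells TRBV15 had 9 of 18 such CDR3s (50%, 29.0 to 71.0), of which 6 were 16 aa long. The difference of 36.0 percentage points between the libraries did not pass adjustment (Fisher's exact test, p = 0.00383, adjusted p = 0.0804), nor did any other V gene, 2 of 21 having an unadjusted p under 0.05 and percent called being 0. TRBV16 had 56.1% in CD8αα and 41.5% in CD8αβ T cells (Fisher's exact test, adjusted p = 0.711), against 35.1% and 31.4% for the other V genes of each library (Fisher's exact test, adjusted p = 0.318 and 0.223). TRBV14 was at 25% and 27.6%, and TRBV17 at 25% and 27.8%.

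By reads the picture followed the largest clonotypes. In CD8αα T cells 79.1% of TRBV16 reads (76.3 to 81.6) had a CDR3 of 13 aa, the length of the clonotype with 663 reads, so that the read-weighted mean of TRBV16 was 13.5 aa against 14.6 aa with each clonotype counted once. TRBV14 also had 79.5% of its CD8αα reads (71.9 to 85.5) at 13 aa, where its 4 clonotypes with 10 or more reads all lay. For TRBV17, by contrast, the read-weighted mean of 14.8 aa lay above the 13.95 aa by clonotypes, since its largest clonotype had a CDR3 of 18 aa. In CD8αβ T cells the read-weighted means were 13.7, 13.3, 14.5 and 13.4 aa, each within 0.3 aa of the mean by clonotypes.

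**Figure D4:**
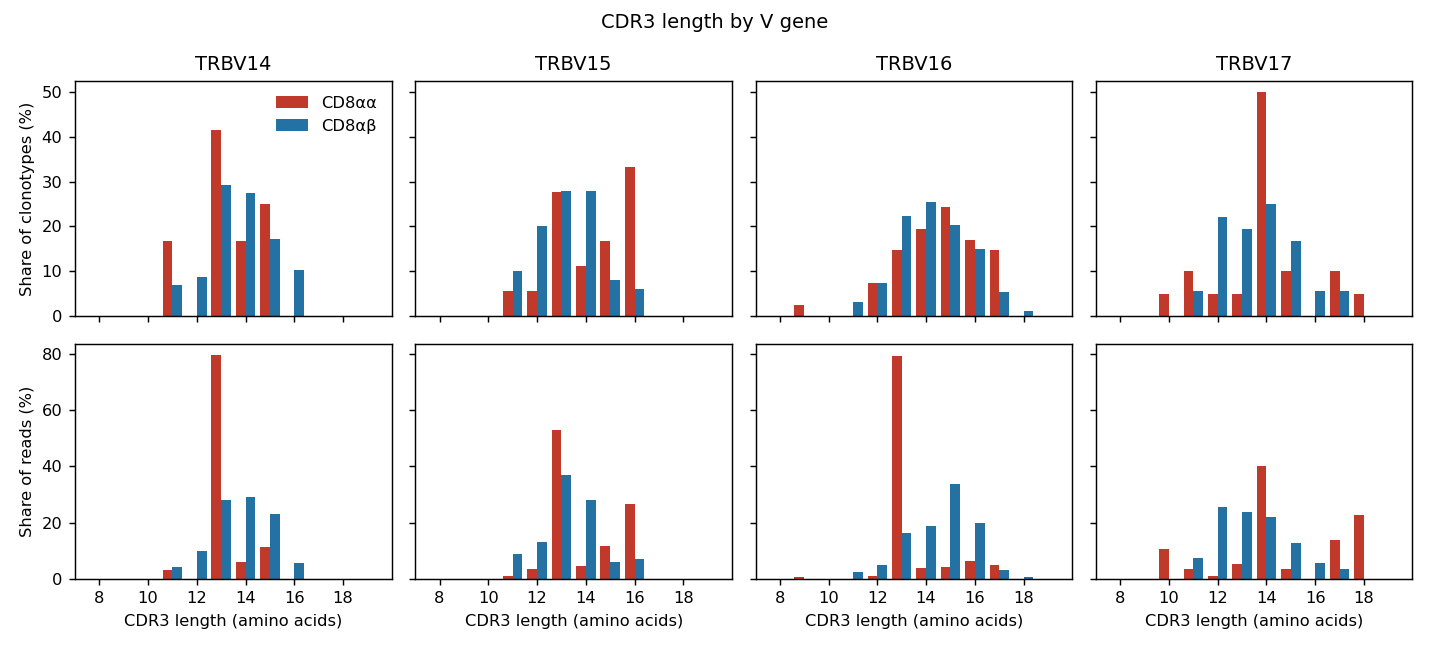
CDR3 length in amino acids for each V gene, as a share of its clonotypes (top) and of its reads (bottom) in percent, in CD8αα (red) and CD8αβ (blue) T cells. In CD8αα T cells the bar at 13 aa holds 79.5% of TRBV14 and 79.1% of TRBV16 reads, and TRBV15 has 6 of 18 clonotypes at 16 aa.

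The first residues of the CDR3 followed the V segments shown above. CASSL opened 48.8% of TRBV16 clonotypes in CD8αα and 40.4% in CD8αβ T cells, and 38.9% and 36.0% of TRBV15 clonotypes, and CASSR opened 70.0% and 61.1% of TRBV17 clonotypes, whose germline codon after CASS is AGA. TRBV14 was more spread, with CASSF, whose last codon TTC is in its germline end, at 25% and 17.2% and CASSL at 25% and 27.6%. These starts, like the junction values below, were looked at after their values were seen and are given as a description.

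Within the core of the CDR3, taken as the residues without the first 4 and last 4, Gly-Gly (GG) was found in 16.7% of TRBV14, 22.2% of TRBV15, 31.7% of TRBV16 and 20% of TRBV17 clonotypes of CD8αα T cells, and in 17.2%, 10.0%, 28.7% and 16.7% in the CD8αβ list. None of the 4 genes differed from the other V genes of its library (percent called 0 in both, with 0 and 4 V genes at an unadjusted p under 0.05), the lowest p being that of TRBV15 in CD8αβ T cells (10.0% against 24.5%, Fisher's exact test, p = 0.0165, adjusted p = 0.198). By reads GG held 79.0% of TRBV16 reads in CD8αα T cells, 663 of 711 of them from the largest clonotype, and 29.4% in CD8αβ T cells. Of the other motifs counted, Gly-Thr-Gly was in 7.32% of TRBV16 clonotypes of CD8αα and 2.13% of CD8αβ T cells, Gly-Leu-Gly in 2.44% and 5.32%, Asp-Arg-Gly in 2.44% and 4.26%, and Gly-Gln-Gly in 0 of 41 and 2 of 94. Gly-Gln-Gly was in 2 of 20 TRBV17 clonotypes of CD8αα T cells, which wrote 1 and the same peptide, and in 4 of 50 TRBV15 clonotypes of CD8αβ T cells.

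DWG in the core was more frequent in TRBV16 than in the other V genes of the same library, in both libraries. It was in 12 of 41 TRBV16 clonotypes of CD8αα T cells (29.3%, 17.6 to 44.5) against 29 of 296 of the others (9.80%), and in 13 of 94 of CD8αβ T cells (13.8%, 8.26 to 22.2) against 38 of 821 (4.63%). Among single V genes of CD8αα T cells, TRBV31 was higher with 1 of 3, and TRBV1 (22.7%) and TRBV3 (20.8%) were next below. In CD8αβ T cells TRBV4 (11.4%) and TRBV14 (10.3%) were next below. The intervals of all these genes overlapped that of TRBV16. DWG was tested after its values were seen, by a two-sided Fisher's exact test adjusted over V genes (adjusted p = 0.0271 in CD8αα and 0.0263 in CD8αβ T cells), and TRBV16 was the V gene called in each library, which gives 4.76% and 4.17% of V genes called. The adjustment did not cover the choice of DWG among the motifs counted, so these p-values serve as a description. With CDR3s that differ by 1 nucleotide merged, the shares were 25.6% against 9.66% in CD8αα T cells and 14.3% against 4.66% in CD8αβ T cells (Fisher's exact test, adjusted p = 0.148 and 0.0209). Among TRBJ2 clonotypes alone they were 35.3% against 15.03% and 18.1% against 6.86% (Fisher's exact test, adjusted p = 0.155 and 0.103), and with at least 2 reads 31.3% against 8.08% and 16.2% against 3.12% (adjusted p = 0.0145 and 0.0610), so the direction held and the call did not hold throughout. Between the libraries TRBV16 differed by 15.4 percentage points (Fisher's exact test, p = 0.0521, adjusted p = 0.365, percent called 0, 2 of 21 V genes at an unadjusted p under 0.05).

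TRBV14 had DWG in 1 of 12 and 6 of 58 clonotypes, TRBV15 in 2 of 18 and 2 of 50, and TRBV17 in 0 of 20 and 1 of 36, for which the 95% interval reached 16.1% in the first library. All 25 TRBV16 clonotypes with DWG had a TRBJ2 segment and were assigned TRBD2, and they used 5 J segments in CD8αα and 6 in CD8αβ T cells. Their CDR3s averaged 16 aa (CD8αα) and 15.5 aa (CD8αβ), against 14.03 and 14.04 aa for TRBV16 clonotypes without DWG. In CD8αα T cells 12 of 12 were of 15 aa or more, against 11 of 29 without DWG, and in CD8αβ T cells 9 of 13 against 30 of 81. The V genes other than these 4 lay the same way, with 17 of 26 against 70 of 220 and 17 of 29 against 208 of 648. All of their DWG clonotypes had a TRBJ2 segment as well. In TRBV16, clone sizes with DWG ran from 1 to 38 reads (CD8αα) and 1 to 20 reads (CD8αβ), so the motif was not confined to large clonotypes, and the clonotype with 663 reads did not carry it. By reads DWG held 10.8% of TRBV16 in CD8αα and 25.4% in CD8αβ T cells.

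An arginine stood directly before DWG in 7 of the 12 TRBV16 clonotypes of CD8αα T cells and in 4 of the 13 of CD8αβ T cells, against 4 of 26 and 6 of 29 DWG clonotypes of the V genes other than these 4. Of the 7, 3 differed from each other by 1 or 2 nucleotides (14, 4 and 2 reads), and with such neighbours merged the count was 5 of 10. The 9 bases of the TRBD2 reading frame shown above, GACTGGGGG, wrote DWG in 11 of the 12 and 11 of the 13. In the others the codons of DWG were not these 9 bases throughout, and V, J or inserted bases can stand within them. Part of a codon can also be assigned to V, as in the CD8αβ clonotype with 20 reads. The CDR3s below show the codons of DWG between their flanks, for the DWG clonotypes of TRBV16 with the most reads in each library and, for comparison, for those of TRBV14 and TRBV15 in CD8αα T cells. Capitals mark the codons of DWG.
TRBV16-TRBJ2-7, CD8αα, 38 reads: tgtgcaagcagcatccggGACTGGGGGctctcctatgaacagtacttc
TRBV16-TRBJ2-4, CD8αα, 18 reads: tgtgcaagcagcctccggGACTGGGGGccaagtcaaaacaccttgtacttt
TRBV16-TRBJ2-5, CD8αα, 14 reads: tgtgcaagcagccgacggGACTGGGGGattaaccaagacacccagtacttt
TRBV16-TRBJ2-5, CD8αα, 8 reads: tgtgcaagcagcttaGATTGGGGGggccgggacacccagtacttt
TRBV16-TRBJ2-4, CD8αβ, 20 reads: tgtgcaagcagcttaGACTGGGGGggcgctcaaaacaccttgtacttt
TRBV16-TRBJ2-4, CD8αβ, 16 reads: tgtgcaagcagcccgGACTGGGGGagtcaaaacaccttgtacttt
TRBV14-TRBJ2-5, CD8αα, 37 reads: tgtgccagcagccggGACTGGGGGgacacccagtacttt
TRBV15-TRBJ2-7, CD8αα, 8 reads: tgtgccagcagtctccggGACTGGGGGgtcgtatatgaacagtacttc

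**Figure D5:**
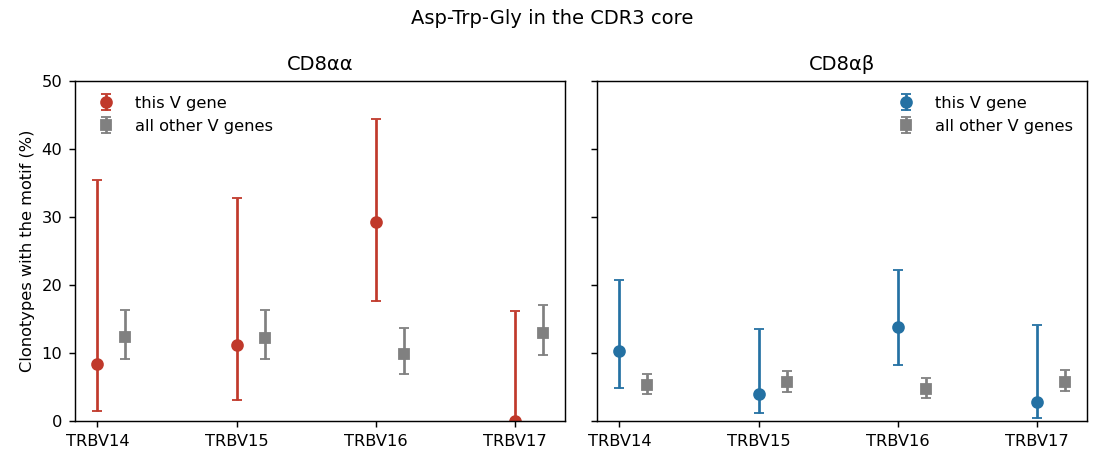
Share of clonotypes with Asp-Trp-Gly in the CDR3 core, in percent, for each V gene (circles) and for all other V genes of the same library (grey squares), in CD8αα (left) and CD8αβ (right) T cells; bars are 95% Wilson intervals. TRBV16 stands at 29.3% against 9.80% in CD8αα and 13.8% against 4.63% in CD8αβ T cells, and TRBV17 at 0 in CD8αα T cells.

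TRBD2 was the assigned D segment of 58.5% (43.4 to 72.2) of CD8αα and 42.6% (33.0 to 52.6) of CD8αβ clonotypes of TRBV16, against 33.3% and 29.0% over the V genes other than these 4. For TRBV15 it was 55.6% (33.7 to 75.4) in CD8αα and 18.0% (9.77 to 30.8) in CD8αβ T cells, and for TRBV17 30.0% and 25%. TRBV14 had 2 of 12 in CD8αα and 23 of 58 in CD8αβ T cells. Among the clonotypes with TRBD2, DWG was read in 12 of 24 (50%, 31.4 to 68.6) for CD8αα TRBV16 and 13 of 40 (32.5%, 20.1 to 48.0) for CD8αβ TRBV16, against 30.5% and 14.8% over the V genes other than these 4. A D segment is assigned from few bases, and those with none assigned made up 14.6% to 35% of a gene's CD8αα clonotypes and 17.2% to 33.3% of its CD8αβ clonotypes.

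The junctions of the 4 genes held few inserted bases, counted as CDR3 bases assigned to no segment. The mean ranged from 2.67 for TRBV14 to 3.35 for TRBV17 in CD8αα T cells and from 2.78 for TRBV16 to 3.55 for TRBV14 in CD8αβ T cells, with an SD of 1.72 to 2.63 over clonotypes. The V genes other than these 4 lay within these ranges, at 2.96 in CD8αα and 3.21 in CD8αβ T cells. The TRBV16-TRBJ2-1 clonotype with 663 reads consisted of 15 bases of V, 8 of TRBD2 and 16 of J with 0 inserted, and the TRBV16 clonotype with 20 reads in CD8αβ T cells and the TRBV14 clonotypes with 37 and 15 reads had 0 as well. Clonotypes with 0 inserted bases were 14.6% (6.88 to 28.4) of CD8αα and 15.96% (9.92 to 24.7) of CD8αβ clonotypes of TRBV16, beside 16.3% and 13.4% over the V genes other than these 4. Weighted by reads, the TRBV16 share was 74.8% in CD8αα and 19.4% in CD8αβ T cells.

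Of the clonotypes of the 4 genes, 1 was in both libraries with the same V, J and nucleotides, a TRBV14-TRBJ1-1 clonotype with 2 reads in CD8αα and 1 in CD8αβ T cells. It was 1 of 91 CD8αα and 1 of 238 CD8αβ clonotypes of the 4 genes, and 1 of 12 (8.33%) and 1 of 58 (1.72%) of TRBV14. Over all TRBV genes 3 clonotypes were shared, or 0.890% of CD8αα and 0.328% of CD8αβ clonotypes. None of the clonotypes shown by V gene or by DWG was found in the other library. Its sequence is given because it is the shared one.
TRBV14-TRBJ1-1, both libraries: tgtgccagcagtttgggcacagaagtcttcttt

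Some clonotypes were near copies of another. In 8 pairs within a gene, J segment and library, the CDR3s differed by 1 nucleotide, and 5 of the 8 were of TRBV16. The same change at the fifth base of the CDR3, C5T counted from its 5′ end, separated 14 from 4 reads in CD8αα T cells and 4 from 3 in CD8αβ T cells and turned CASS into CVSS. The 2 peptides written by more than 1 nucleotide sequence were both of CD8αα T cells, 1 of TRBV17-TRBJ1-2 with 10 and 1 reads (G21A) and 1 of TRBV15-TRBJ1-3 with 2 and 1 reads (A33C). Whether such pairs are separate rearrangements or copies with sequencing or PCR errors was not tested. The TRBV16 pairs with C5T and the TRBV17 pair are shown with the differing base in capitals.
TRBV16-TRBJ2-5, CD8αα, 14 reads: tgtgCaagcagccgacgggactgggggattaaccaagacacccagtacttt
TRBV16-TRBJ2-5, CD8αα, 4 reads: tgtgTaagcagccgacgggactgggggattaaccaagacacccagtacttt
TRBV16-TRBJ2-3, CD8αβ, 4 reads: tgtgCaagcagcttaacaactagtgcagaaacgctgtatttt
TRBV16-TRBJ2-3, CD8αβ, 3 reads: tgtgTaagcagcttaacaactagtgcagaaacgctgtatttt
TRBV17-TRBJ1-2, CD8αα, 10 reads: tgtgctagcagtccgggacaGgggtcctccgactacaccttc
TRBV17-TRBJ1-2, CD8αα, 1 read: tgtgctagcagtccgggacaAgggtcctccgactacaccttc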

How the data were processed

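CD8αα and CD8αβ T cells were sorted from liver and their RNA was sequenced in bulk, 1 library for each. The authors assembled clonotypes with MiXCR and deposited, for each, a count of reads without normalization and its fraction of the listed reads. The submitters' notes name mm10. The MiXCR reference and command are not given in the sources used here. From the counts, TCR β-chain clonotypes were taken and grouped by first V hit. Segment limits within the CDR3 came from the deposited alignment points, and germline sequence and coordinates from GENCODE transcripts of GRCm38. Shares were tested with Fisher's exact test, two-sided, with Benjamini-Hochberg adjustment over all V genes or V-J pairs (threshold 0.05), in Python 3.11.15 with scipy 1.17.1 and pandas 2.3.3. The Fisher comparison was tried on simulated reads drawn independently, so the trial did not cover reads that come in clonotypes. A smaller planted shift was called too seldom there, and the trial then used a larger one. Clonotypes named were those with 10 or more reads, or the 3 largest of a gene, those in both libraries and peptides written more than once, of which the text gives the leading ones. Genes, motifs and tests were chosen with earlier results of these data known.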

Additional observations from a re-analysis of the deposited data

How the results depend on the processing

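Of 246 comparisons under an alternative, 220 kept their direction and side of the threshold, 5 lost a call, 6 gained one and 15 changed direction. Some could not change, since merging clonotypes with the same peptide or 1 nucleotide apart leaves the V share of reads as it was. Others put DWG in place of GG, which is another motif, so the count does not measure robustness. Without the largest clonotype of each V gene, the difference in share of reads (CD8αα less CD8αβ, percentage points) was -0.013 for TRBV14, -1.86 for TRBV15 and 3.22 for TRBV17. Without the largest clonotype of each library, added later, it was -1.22 for TRBV14, -1.26 for TRBV16 and 1.80 for TRBV17. TRBV15 in CD8αβ T cells lost its call for CDR3s of 15 aa or more (-17.0 with at least 2 reads, -19.3 without tied V hits). For DWG in place of GG, added later, TRBV16 exceeded the other V genes by 19.5 in CD8αα and 9.20 in CD8αβ T cells, by 9.62 in CD8αβ T cells with 1-nucleotide neighbours merged, and by 23.2 in CD8αα T cells with at least 2 reads. The cause of these changes was not tested.

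All other changes of direction were in differences that were not called in either setting. With at least 2 reads, the TRBV14 difference between libraries was 13.3 for TRBJ2 and 11.5 for long CDR3s, and the TRBV17 difference for long CDR3s was 5.71. It was 2.87 for TRBV14 and TRBJ2 without shared clonotypes, and 0.957 for TRBV14 and long CDR3s without the largest clonotypes. Against other V genes with at least 2 reads, TRBJ2 in CD8αβ T cells gave -1.10 for TRBV14, 7.06 for TRBV15 and -3.53 for TRBV17, and GG gave -3.26 for TRBV15 in CD8αα T cells. DWG in place of GG gave -1.11 for TRBV15 in CD8αα T cells (-2.84 among TRBJ2 clonotypes) and 5.09 for TRBV14 in CD8αβ T cells (5.04 with neighbours merged, 5.59 among TRBJ2 clonotypes). No paired analysis was possible because each cell type had 1 library.

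Comparisons within a gene rest on 12 to 41 clonotypes in CD8αα T cells.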
